A study of Mus musculus with 4 samples.

Results

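The 30 genes described here make, move, store and export cholesterol, or control those steps. They were taken by symbol from a list, out of 31053 genes counted in every library. The list was chosen with earlier results of these data known. They comprise 7 genes of the mevalonate steps, 3 of the squalene and lanosterol steps, 8 of the steps between lanosterol and cholesterol, 5 of SREBF control, 2 of sterol transport and storage, and 5 of the efflux side. The libraries hold single-cell RNA counts of immune cells that had infiltrated tumours in the brain of C57BL/6 mice, taken at the symptomatic stage. There were 2 libraries of mIDH1 tumours and 2 of wtIDH1 tumours, in a genetically engineered glioma model that expresses mutant or wild-type isocitrate dehydrogenase. The labels give neither the promoter or other alleles of the model, nor the sort used, nor whether the 2 libraries of a genotype came from separate animals, so the p-values measure the spread between these libraries.

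Cells build cholesterol from acetyl-CoA through mevalonate, farnesyl diphosphate, squalene and lanosterol. When sterol in the endoplasmic reticulum falls, the INSIG proteins release SCAP, which escorts the transcription factor SREBF2 to the Golgi for cleavage, and SREBF2 then switches on the synthesis and uptake genes. When oxysterols build up, the liver X receptors encoded by Nr1h2 and Nr1h3 instead switch on the exporters Abca1 and Abcg1 and the ubiquitin ligase Mylip, which removes lipoprotein receptors from the cell surface. Macrophages and microglia, which take up lipid from dying cells and myelin, are known for strong use of the export side.

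Each cell was gated into a class by fixed marker genes, none of them a member. Of 16289 barcodes, 13123 cells were kept and 9740 fell into the 6 classes used here, called macrophage-like, monocyte-like, microglia-like, dendritic-like, neutrophil-like and T cell-like. Counts of unique molecular identifiers (UMIs) were summed over the cells of a class in each library, which gave 24 sums, and levels are given in CPM, UMIs scaled to a common total for that class and library. The smallest sums were those of 60 microglia-like cells in mIDH1 replicate 2 and of 85 neutrophil-like cells in wtIDH1 replicate 1, with 183231 and 179794 UMIs. Values of a genotype are given as replicate 1 and then replicate 2, and a gene is said to be higher or lower only where edgeR's quasi-likelihood test gave an adjusted p under 0.05 over all genes tested. Levels of different genes are not compared. RNA released from other cells adds UMIs to every droplet, so a low level in a class does not show expression there, and in a sum per class fewer expressing cells and less RNA per cell cannot be told apart.

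The exporter Abca1 lay higher in every macrophage-like, monocyte-like, microglia-like and neutrophil-like sum than in any dendritic-like or T cell-like sum. For Abcg1, Mylip and Nr1h3 this separation was only partial. Every T cell-like sum of Abcg1, but not every dendritic-like sum, lay below all sums of those 4 classes. Every microglia-like sum for Mylip, and every macrophage-like and monocyte-like sum for Nr1h3, lay above all dendritic-like and T cell-like sums. Abca1, the pump that loads cholesterol onto lipid-poor apolipoprotein, stood at 512 and 288 CPM in macrophage-like cells of the mIDH1 libraries, against 536 and 547 CPM in the wtIDH1 libraries. In T cell-like cells the same gene had 7.82 and 3.13 CPM in mIDH1, against 11 and 9.8 CPM in wtIDH1. Every macrophage-like sum thus lay far above every T cell-like sum. Averaged over the 4 libraries, Abca1 was 513 CPM in microglia-like, 471 in macrophage-like, 202 in monocyte-like, 167 in neutrophil-like, 20.4 in dendritic-like and 7.94 CPM in T cell-like cells. Along that order the library ranges were apart between macrophage-like and monocyte-like cells and between neutrophil-like and dendritic-like cells, while the other neighbours overlapped.

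Abcg1, the exporter that passes cholesterol to high-density lipoprotein, averaged 209 ± 61 CPM in microglia-like, 200 ± 46 in neutrophil-like, 157 ± 60 in monocyte-like, 157 ± 38 in macrophage-like, 107 ± 17 in dendritic-like and 41.2 ± 7.7 CPM in T cell-like cells (SD, n = 4). Dendritic-like and T cell-like cells were the only neighbours with ranges apart. Mylip averaged 171 ± 69 CPM in microglia-like cells, 107 ± 52 in neutrophil-like cells, 61.7 ± 29 in macrophage-like cells, 40.7 ± 29 in monocyte-like cells, 31.1 ± 21 in dendritic-like cells and 29.6 ± 8.8 CPM in T cell-like cells (SD, n = 4). All neighbours in the order of Mylip overlapped.

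Nr1h3, the liver X receptor of macrophages, followed a different order. In macrophage-like cells it had 56.5 and 46.0 CPM in mIDH1, against 72.1 and 55.2 CPM in wtIDH1. In monocyte-like cells it had 18.8 and 18 CPM in mIDH1, against 66.0 and 29.2 CPM in wtIDH1. It averaged only 10.8 CPM in microglia-like cells, 3.77 in dendritic-like cells, 1.22 in neutrophil-like cells and 0.819 CPM in T cell-like cells, and between monocyte-like and microglia-like cells the ranges were apart. Nr1h2, the receptor found in most tissues, varied less, between averages of 38.7 ± 4.5 CPM in microglia-like and 72.9 ± 6.4 CPM in dendritic-like cells (SD, n = 4).

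The test of each class against the mean of the other 5, fitted over the 24 sums with the library as a block and 11657 genes, put these differences beside those of all genes. In macrophage-like cells 5 of the 30 genes were higher and 6 lower, while 28.4% of all genes were higher and 15.7% lower. The higher ones were Nr1h3 (log2 fold change 3.49), Abca1 (2.57) and Abcg1 (0.34), with Soat1 (0.71), which esterifies cholesterol for storage in droplets, and Mvd (0.84), which makes isopentenyl diphosphate. The lower ones were Srebf2 (−1.03), the master regulator of synthesis, Stard4 (−1.10), a cytosolic sterol carrier, and the enzymes Fdps (−0.79), Sc5d (−0.77), Cyp51 (−0.72) and Msmo1 (−0.44). Of these calls Msmo1 passed in 4 and Abcg1 in 5 of the 8 other settings tried.

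In microglia-like cells 4 genes were higher and 7 lower, against 22.2% and 17.5% of all genes. Abca1 (2.58), Mylip (1.74), Abcg1 (0.72) and Dhcr7 (1.48), the enzyme of a final reduction to cholesterol, were the higher ones. Stard4 (−1.94), Srebf2 (−1.51), Sc5d (−1.19), Cyp51 (−1.08), Nr1h2 (−0.79), Mvd (−0.78) and Pmvk (−0.61) were the lower ones. Mvd passed in only 1, Pmvk in 3 and Cyp51 in 4 of the 8 other settings. Under library totals, without trimmed mean normalization, the split of members was 6 higher and 4 lower, with 3208 higher and 1401 lower among all genes instead of 2592 and 2045.

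In monocyte-like cells 8 enzyme genes and 3 efflux genes were higher than in the other classes. Of the 30 genes 13 were higher and 2 lower, where 25.8% of all genes were higher and 16.6% lower. Besides Nr1h3 (2.52), Abca1 (1.15) and Abcg1 (0.40), the higher genes were the enzymes Mvd (1.34), Cyp51 (1.31), Msmo1 (0.72), Fdft1 (0.61), Pmvk (0.55), Fdps (0.50), Hmgcs1 (0.48) and Ebp (0.39), as well as Insig1 (1.27), which retains SCAP and is itself a target of SREBF2, and Soat1 (0.72). Mylip (−0.65) and Scap (−0.81) were lower. Fdps passed in only 2, and Fdft1 and Hmgcs1 in 4, of the 8 other settings. The contrast averages over the genotypes, and the genotype differences within this class are given further on.

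In dendritic-like cells 9 enzyme genes were higher, and Abca1, Abcg1, Mylip and Nr1h3 were lower. Of the 30 genes 12 were higher and 7 lower, against 22% and 16.2% of all genes. Pmvk, phosphomevalonate kinase, had 150 and 162 CPM in mIDH1, against 151 and 92.5 CPM in wtIDH1, with a log2 fold change of 2.19 over the other classes. Idi1, which isomerizes isopentenyl diphosphate, had 62.1 and 83.2 CPM in mIDH1, against 34.3 and 47.8 CPM in wtIDH1, and a log2 fold change of 2.05. Srebf2 averaged 119 ± 9.3 CPM (SD, n = 4), above every library of every other class, and its log2 fold change was 1.29. Sqle (2.01), squalene epoxidase, Fdps (1.44), Cyp51 (1.43), Hsd17b7 (1.5), Nsdhl (1.22), Hmgcs1 (1.12), Msmo1 (0.72), Scap (0.61) and Insig1 (0.49) were also higher. Abca1 (−2.93), Nr1h3 (−1.39), Mylip (−1.24), Soat1 (−0.83), Insig2 (−0.58), Abcg1 (−0.46) and Ebp (−0.36) were lower. Ebp passed in only 2 and Insig2 in 4 of the 8 other settings. Nr1h3 had 18 UMIs in all dendritic-like cells and did not pass the filter on low counts in this class alone.

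In T cell-like cells the same 4 efflux genes were lower. Of the 30 genes 13 were higher and 9 lower, against 36.5% and 31.7% of all genes. Abca1 (−4.77), Nr1h3 (−3.78), Abcg1 (−2.27), Soat1 (−1.93), Mylip (−1.45), Mvd (−1.13), Pmvk (−0.88), Msmo1 (−0.61) and Insig1 (−0.59) were lower. Stard4 (1.58), Lss (1.43), which closes the sterol ring, Hsd17b7 (1.29), Acat2 (1.24), the thiolase of the first step, Sqle (1.22), Scap (1.11), Idi1 (0.84), Dhcr7 (0.84), Cyp51 (0.73), Nsdhl (0.73), Fdft1 (0.64), Srebf2 (0.40) and Ebp (0.30) were higher. Nr1h3 had 11 UMIs in all T cell-like cells and did not pass the filter on low counts in this class alone. Ebp and Msmo1 passed in 4 of the 8 other settings each. None of these settings left out cycling cells, so their part in this contrast was not tested. Acat2 has a near-identical neighbour gene, so its counting is uncertain.

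Neutrophil-like cells had 11 of the enzyme genes lower and 1, Sc5d, higher. Of the 30 genes 8 were higher and 14 lower, where 28.9% of all genes were higher and 32% lower. Sc5d, a desaturase late in the pathway, had 73.6 and 43.0 CPM in mIDH1, against 66.7 and 67.2 CPM in wtIDH1, a log2 fold change of 2.13. Mylip (1.53), Stard4 (1.42), Abca1 (1.39), Abcg1 (1.28), Soat1 (1.02), Nr1h2 (0.79) and Srebf2 (0.69) were also higher. Nsdhl (−3.07), Hsd17b7 (−2.54), Dhcr7 (−2.12), Tm7sf2 (−1.98), Idi1 (−1.93), Cyp51 (−1.66), Sqle (−1.58), Pmvk (−1.56), Nr1h3 (−1.52), Lss (−1.42), Hmgcs1 (−1.35), Scap (−0.91), Srebf1 (−0.57) and Ebp (−0.47) were lower. Lss and Sqle passed in 4 of the 8 other settings each. The filter on low counts ran over all 24 sums in this fit. In neutrophil-like cells alone 13 of the 30 members did not pass it, with as few as 3 UMIs in all. These included all 3 genes of the squalene and lanosterol steps, so such negative values rest on few UMIs. The neutrophil-like and T cell-like splits moved with the scaling. Under library totals 6 members were higher and 21 lower in neutrophil-like cells (2161 and 6096 of all genes, instead of 3365 and 3726), and 16 higher and 7 lower in T cell-like cells (5800 and 2863, instead of 4254 and 3690). In dendritic-like cells it was 15 and 5 (3415 and 1407, instead of 2568 and 1889). No member called in these contrasts changed direction in any of the 8 other settings.

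**Figure D1:**
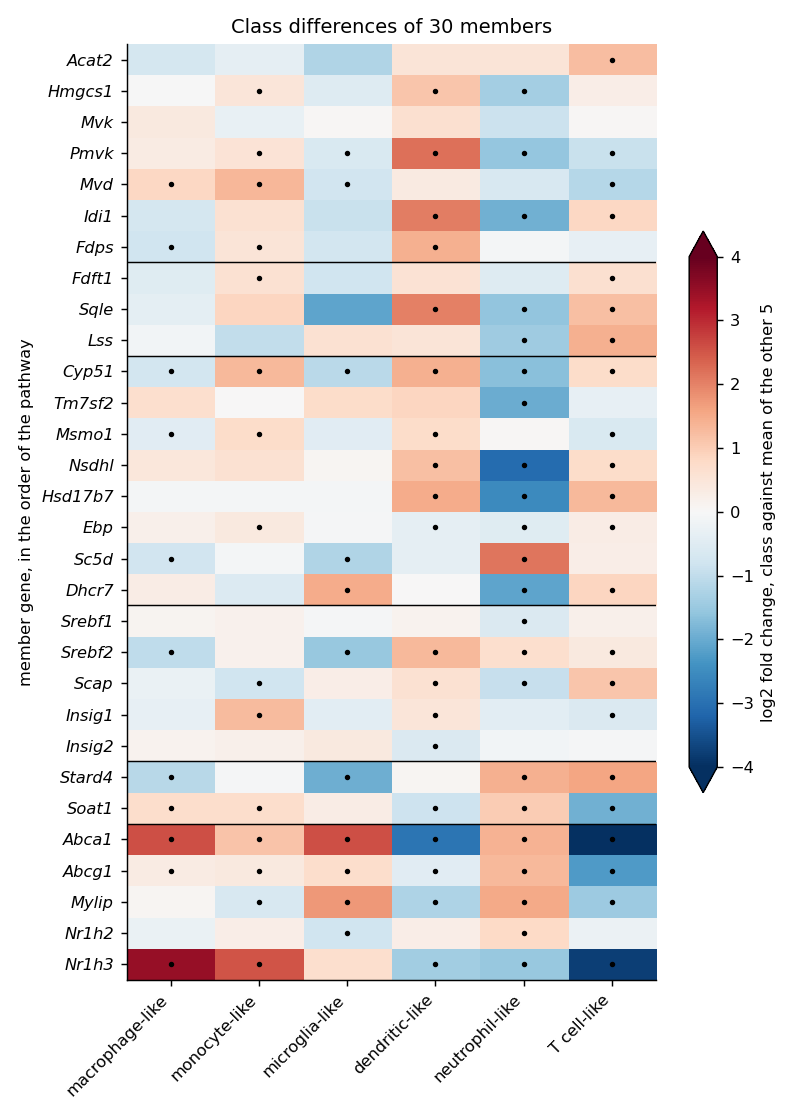
Log2 fold change of each of the 30 genes in a class against the mean of the other 5 classes, with the genes arranged by role and the 6 classes side by side; dots mark values past the adjusted p of 0.05, and values beyond the ends of the colour scale take its end colour. Abca1 is higher in macrophage-like cells (2.57), where Srebf2 is lower (−1.03), and lower in T cell-like cells (−4.77), where Srebf2 is higher (0.40), but both are higher in neutrophil-like cells (1.39 and 0.69).

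Set directly against monocyte-like cells, macrophage-like cells had 4 of the 30 genes higher and 10 lower, with 20.3% of all genes higher and 17.6% lower. Abca1 (1.19), Nr1h3 (0.81), Dhcr7 (0.70) and Mylip (0.60) were higher. Cyp51 (−1.70), Insig1 (−1.35), Idi1 (−1.09), Fdps (−1.07), Srebf2 (−0.99), Msmo1 (−0.97), Fdft1 (−0.92), Stard4 (−0.88), Sc5d (−0.57) and Nr1h2 (−0.45) were lower. Stard4 and Sc5d passed in 2 and Dhcr7 in 3 of the 8 other settings. Set against microglia-like cells, macrophage-like cells had Nr1h3 (2.36), Mvd (1.35) and Pmvk (0.77) higher and Mylip (−1.39) and Dhcr7 (−0.98) lower, that is 3 and 2 genes beside 13.3% and 11.6% of all genes (2 and 3 under library totals, with 1153 and 1651 of all genes instead of 1551 and 1351). Pmvk and Dhcr7 passed there in 4 of the 8 other settings each.

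**Figure D2:**
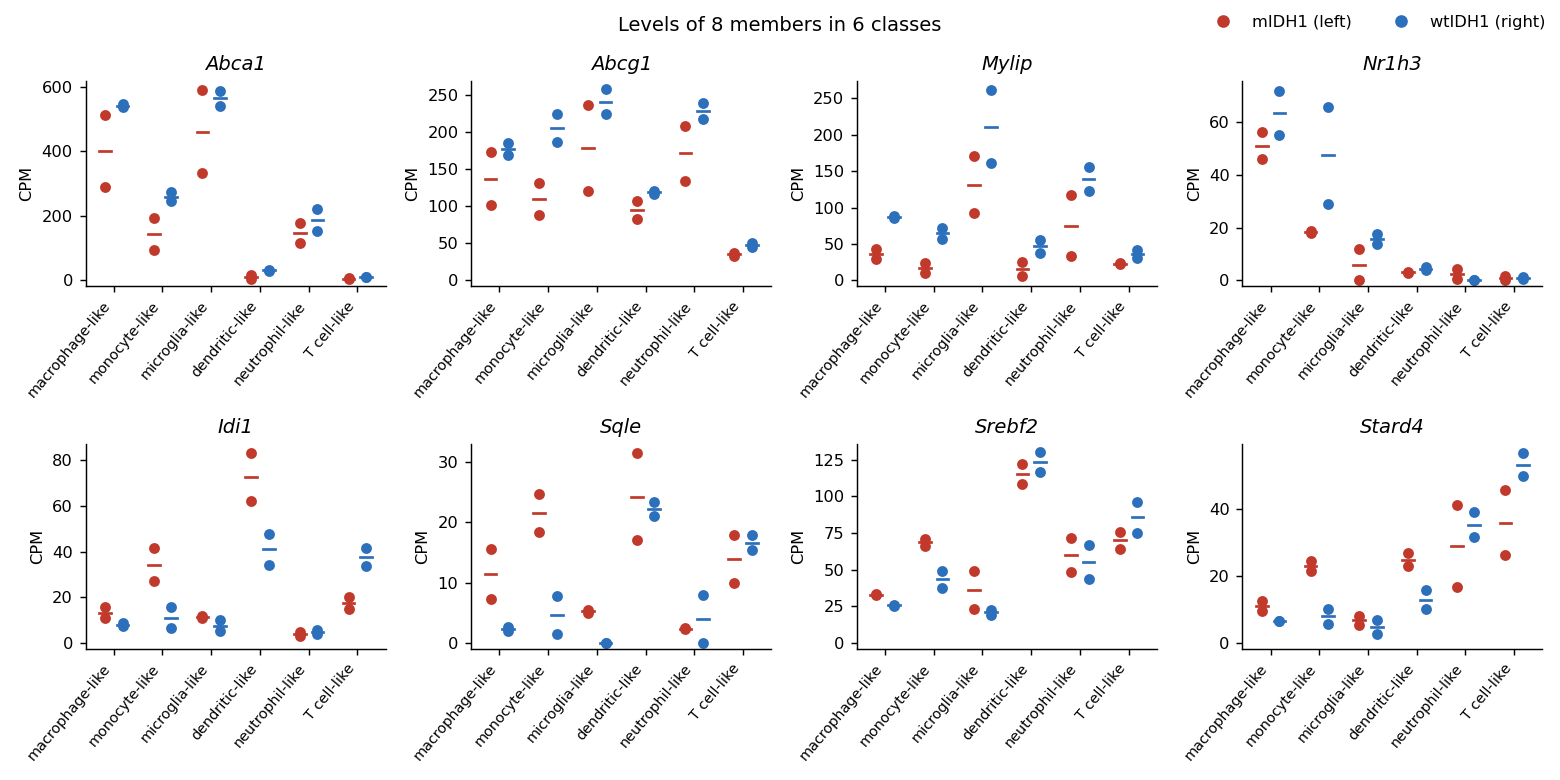
Level in CPM (linear axis) of 8 of the genes in each class, 1 point per library with mIDH1 left of wtIDH1 and a short line at each mean. Nr1h3 is high in macrophage-like and monocyte-like cells and near 0 in T cell-like cells (mean 0.819 CPM), while Srebf2 is highest in dendritic-like cells (mean 119 CPM).

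Summed over the 17 synthesis enzymes after the first thiolase step, macrophage-like cells had 261 and 308 CPM in mIDH1, against 239 and 256 CPM in wtIDH1. The efflux sum of Abca1, Abcg1, Mylip and Nr1h3 was 785 and 465 CPM in the same cells of mIDH1, against 882 and 857 CPM in wtIDH1. The ratio of the synthesis to the efflux sum serves only to set classes and libraries side by side, since the sums hold different genes and its size has no meaning of its own. In macrophage-like cells it was 0.333 and 0.663 in mIDH1, against 0.270 and 0.298 in wtIDH1. Microglia-like cells had ratios of 0.254 and 0.450 in mIDH1, against 0.236 and 0.174 in wtIDH1, and neutrophil-like cells 0.411 and 0.548 in mIDH1, against 0.234 and 0.456 in wtIDH1. Dendritic-like cells had ratios of 3.47 and 8.79 in mIDH1, against 2.36 and 2.42 in wtIDH1. T cell-like cells had 4.69 and 5.54 in mIDH1, against 4.44 and 3.92 in wtIDH1. With cycling cells (3 or more UMIs of cell cycle genes) left out, the T cell-like ratios were 2.95 and 3.98 in mIDH1, against 2.63 and 2.15 in wtIDH1. Monocyte-like cells had ratios of 1.09 and 2.89 in mIDH1, against 0.356 and 0.568 in wtIDH1. In neutrophil-like cells the ratios of the genotypes overlapped. In the other 5 classes both mIDH1 ratios lay above both wtIDH1 ratios, which was not tested. In T cell-like cells the synthesis sum was nevertheless lower in mIDH1, with 329 and 322 CPM, against 390 and 399 CPM in wtIDH1. Their efflux sum was 70.2 and 58.2 CPM in mIDH1, against 88.0 and 102 CPM in wtIDH1. In macrophage-like, monocyte-like, microglia-like and dendritic-like cells both mIDH1 synthesis sums lay above both wtIDH1 sums. After subtraction of RNA estimated to come from other cells, both mIDH1 ratios stayed above both wtIDH1 ratios only in macrophage-like and monocyte-like cells. Dendritic-like ratios were then 4.25 and 9.14 in mIDH1, against 4.27 and 4.46 in wtIDH1. T cell-like ratios were 5.67 and 5.62 in mIDH1, against 5.83 and 4.59 in wtIDH1. Microglia-like ratios were 0.178 and 0.412 in mIDH1, against 0.22 and 0.128 in wtIDH1. Across the 24 points the log2 sums of synthesis and efflux had a Pearson correlation of −0.64 and a Spearman correlation of −0.68, a description only, because 6 points each share a library and its depth and Abca1 carries much of the efflux sum.

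**Figure D3:**
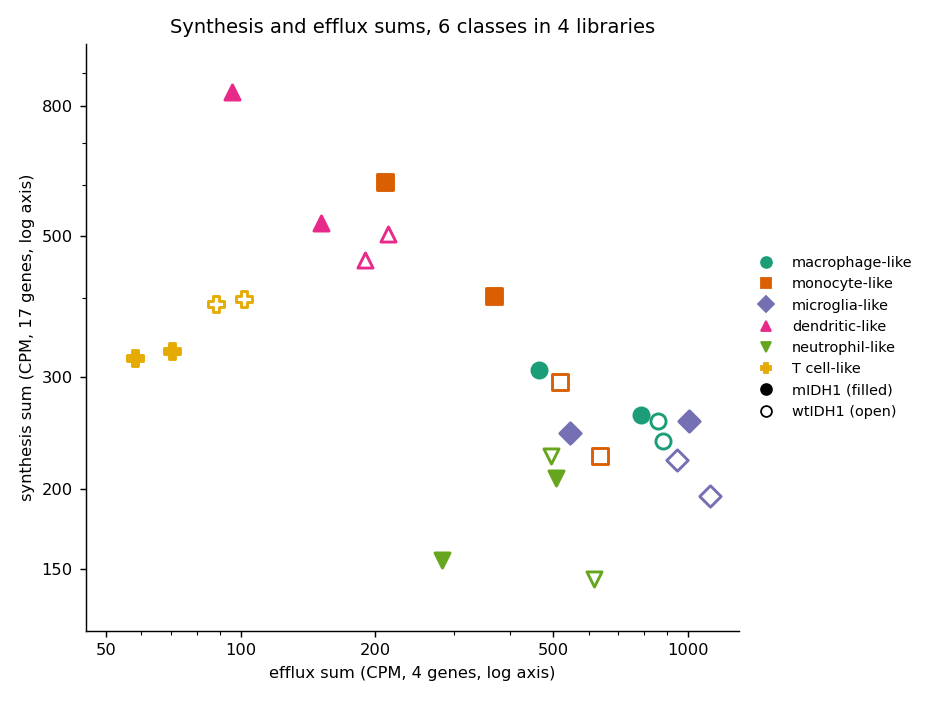
Summed synthesis level against summed efflux level in CPM (both log axes), 1 point per class and library, with a colour and shape for each class, filled for mIDH1 and open for wtIDH1. Dendritic-like and T cell-like cells lie to the upper left (ratios of 2.36 or more) and macrophage-like and microglia-like cells to the lower right (ratios of 0.663 or less), and the monocyte-like points of mIDH1 lie above and left of those of wtIDH1.

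Among all 30 genes, those whose levels ran most like Abca1 over the 24 sums were Soat1 (Pearson 0.94 of log2 levels), Abcg1 (0.84), Mylip (0.69) and Nr1h3 (0.58). Those most like Sqle were Idi1 (0.81), Cyp51 (0.80), Fdps (0.78) and Hmgcs1 (0.71). Those most like Srebf2 were Sqle (0.68), Stard4 (0.68), Idi1 (0.68) and Fdft1 (0.66). These 24 sums share 4 libraries and 6 classes.

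The comparison of mIDH1 with wtIDH1 within a class asked whether the genotype of the tumour went with a different balance in the immune cells. The most members passed the test in monocyte-like cells, synthesis genes as higher and efflux genes as lower. Of the 27 members tested, 12 were higher in mIDH1 and 3 lower, while 10.3% of the 9402 genes tested were higher and 5.79% lower. Lss, Tm7sf2 and Hsd17b7 were too low to be tested, with 20, 39 and 51 UMIs in all. The median log2 fold change was 0.74 over the members tested and −0.03 over all genes. Under library totals, which shift the median of all genes to −0.29, the members split into 9 higher and 4 lower and all genes into 546 and 1462, instead of 964 and 544.

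The higher genes came from the early, middle and late steps of synthesis. Fdps, farnesyl diphosphate synthase, had 37.2 and 90.9 CPM in monocyte-like cells of mIDH1, against 8.13 and 14.8 CPM in wtIDH1. Both mIDH1 libraries were above both wtIDH1 libraries, with replicate 2 of mIDH1 far above replicate 1, and the log2 fold change was 2.89 ± 0.38 (SE, edgeR adjusted p = 9.16e-05). Sqle, the oxygen-dependent enzyme after squalene, had 18.4 and 24.6 CPM in mIDH1, against 1.49 and 7.81 CPM in wtIDH1, a log2 fold change of 2.84 ± 0.45 (SE, edgeR adjusted p = 0.000469). The lowest of these values, in wtIDH1 replicate 1, rested on 9 UMIs. Idi1 had 27.0 and 41.7 CPM in mIDH1, against 6.64 and 15.6 CPM in wtIDH1, with a log2 fold change of 2.06 ± 0.33 (SE, edgeR adjusted p = 0.000494).

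Further down the pathway Cyp51, lanosterol demethylase, had 48.1 and 71.5 CPM in monocyte-like cells of mIDH1, against 12.9 and 28.4 CPM in wtIDH1, a log2 fold change of 1.92. Fdft1, squalene synthase, had 19.9 and 28.7 CPM in mIDH1, against 9.29 and 12.3 CPM in wtIDH1, a change of 1.5. Msmo1, which removes methyl groups from sterols, had 38.7 and 61.1 CPM in mIDH1, against 19.6 and 29.2 CPM in wtIDH1, a change of 1.37. In each of these genes the libraries separated by genotype. Hmgcs1, which makes HMG-CoA, had 43.5 and 45.2 CPM in mIDH1, against 24.1 and 26.7 CPM in wtIDH1 (1.08). Sc5d had 22.1 and 31.8 CPM in mIDH1, against 13.4 and 20.1 CPM in wtIDH1 (1.03). Pmvk had 45.8 and 70.1 CPM in mIDH1, against 43.1 and 27.9 CPM in wtIDH1 (0.94), so that its nearest libraries differed by little.

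Of the 5 SREBF control genes Srebf2 and Insig1 were higher, and of the 2 transport and storage genes Stard4. Stard4 had 21.4 and 24.3 CPM in monocyte-like cells of mIDH1, against 5.64 and 10.3 CPM in wtIDH1, a log2 fold change of 1.90. Srebf2 had 66.1 and 71.2 CPM in mIDH1, against 37.8 and 48.9 CPM in wtIDH1, a change of 0.95. Insig1 had 46.6 and 46.0 CPM in mIDH1, against 28.4 and 39.4 CPM in wtIDH1, a change of 0.74, which passed in 9 of 19 other settings. Srebf1, whose product favours fatty acid genes, had 28.5 and 25.5 CPM in mIDH1, against 32.4 and 24.7 CPM in wtIDH1, and did not pass the test. Scap and Insig2 did not pass either.

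On the efflux side of monocyte-like cells Mylip had 23.7 and 10.1 CPM in mIDH1, against 71.8 and 57.1 CPM in wtIDH1, a log2 fold change of −1.74. Nr1h3 had 18.8 and 18 CPM in mIDH1, against 66.0 and 29.2 CPM in wtIDH1, a change of −1.18. Abcg1 had 131 and 87.7 CPM in mIDH1, against 224 and 187 CPM in wtIDH1, a change of −0.67. All 3 were lower in both mIDH1 libraries than in either wtIDH1 library. Mylip passed in 16 of 19 other settings, Abcg1 in 11 of 19 and Nr1h3 in 11 of 17. With DESeq2 9 members were higher and only 1, Mylip, lower, with 647 and 194 of all genes. Abca1 had 194 and 94.7 CPM in mIDH1, against 274 and 246 CPM in wtIDH1, and its change of −0.62 missed the threshold (edgeR adjusted p = 0.093). Nr1h2 had 64.6 and 62.8 CPM in mIDH1, against 64.5 and 61.2 CPM in wtIDH1, and Soat1 244 and 213 CPM in mIDH1, against 267 and 292 CPM in wtIDH1, neither past the threshold.

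**Figure D4:**
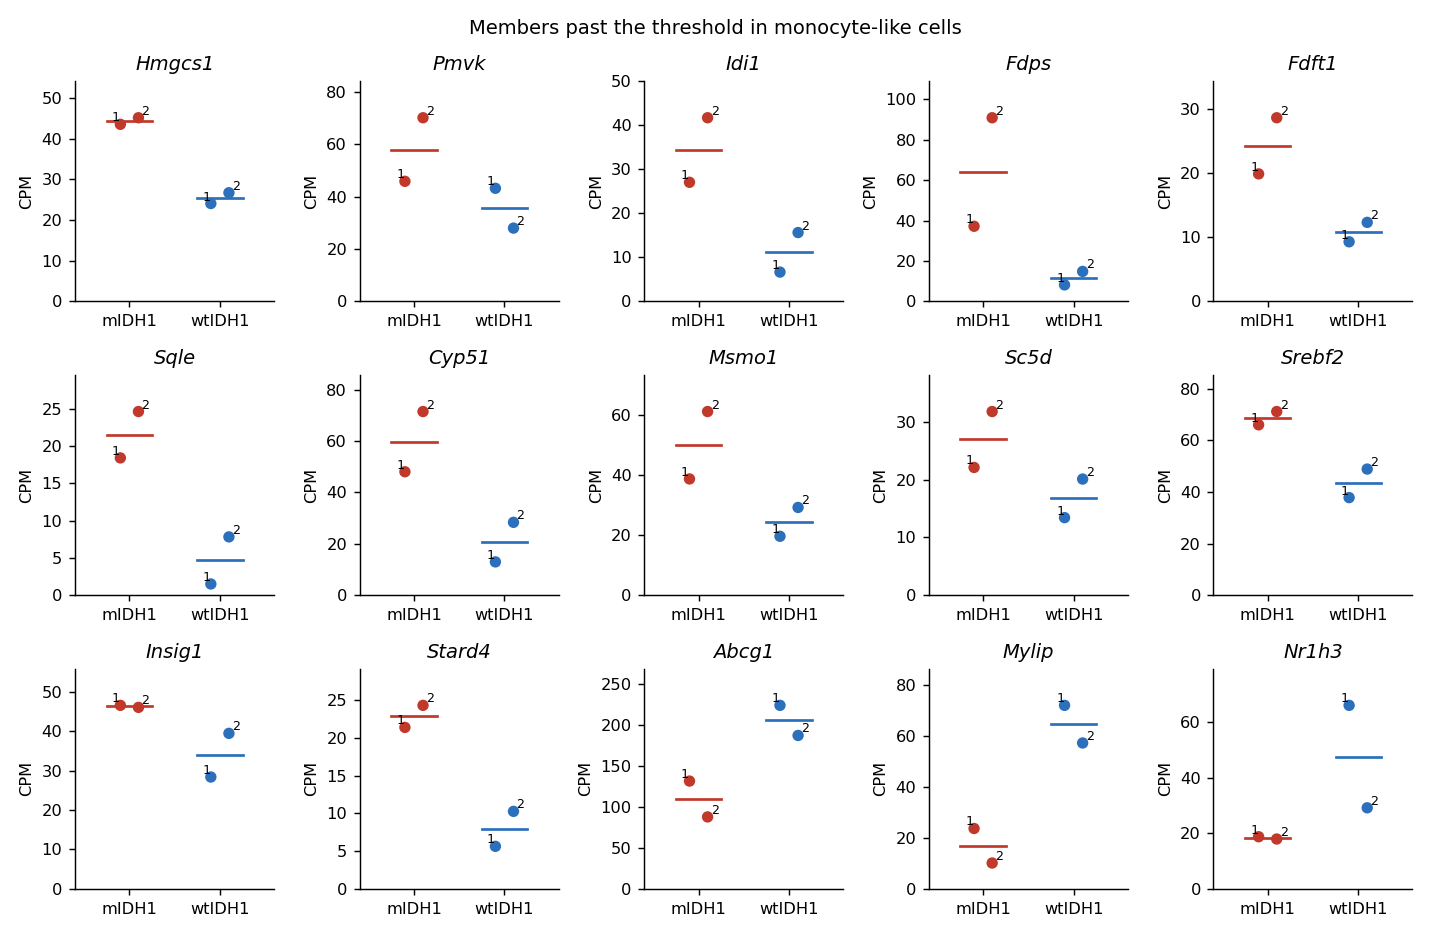
Level in CPM of the genes that passed the test in monocyte-like cells, 1 point per library, numbered by replicate, with mIDH1 left of wtIDH1 and a line at each mean. For Fdps both mIDH1 points (37.2 and 90.9 CPM) lie above both wtIDH1 points (8.13 and 14.8 CPM), and for Mylip both (23.7 and 10.1 CPM) lie below (71.8 and 57.1 CPM).

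The number of calls depended on the second mIDH1 library, for the members and for all genes. Without it 3 members were higher and 1 lower (Fdps, Hmgcs1 and Stard4, and Mylip), with 284 and 78 of 9571 genes, beside 964 and 544 in all libraries. Without mIDH1 replicate 1 the 12 and 3 members became 14 and 3, with 1231 and 532 of 9963 genes. The monocyte-like cells also fell into different clusters in the 2 genotypes. In mIDH1 42.9% were in cluster 0 (Ms4a4c, Ly6c2, Plac8), 27.5% in cluster 1 (Ccl24, Pf4, Arg1) and 20.8% in cluster 4 (Ace, Ear2, Treml4), and in wtIDH1 55.0% were in cluster 0, 22.2% in cluster 3 (Gpnmb, Ms4a7, Mertk) and 10.9% in cluster 4. Within cluster 0 alone, a setting added after the data were seen, 12 members were higher and 3 lower of 22 tested, with 663 and 406 of 7750 genes, and 14 of the 15 genes called in all monocyte-like cells were called. There Fdps had 41.5 and 139 CPM in mIDH1, against 6.46 and 7.40 CPM in wtIDH1, and Mylip had 20.4 and 12.5 CPM in mIDH1, against 75.0 and 55.5 CPM in wtIDH1. The ratio of synthesis to efflux within cluster 0 was 1.21 and 3.91 in mIDH1, against 0.300 and 0.470 in wtIDH1. In clusters 1, 3 and 4, with fewer cells, 0 of 20, 12 and 16 members passed edgeR's test, with 4, 1 and 1 at an unadjusted p under 0.05. Among all genes 249 of 4884 passed in cluster 1, 82 of 5422 in cluster 3 and 432 of 5686 in cluster 4. At an unadjusted p under 0.05 there were 909, 878 and 1322 of all genes.

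Other markers moved along with the genotype in monocyte-like cells. The summed level of 10 hypoxia genes was 1959 and 2169 CPM in mIDH1, against 1224 and 1080 CPM in wtIDH1. The summed level of 15 neutrophil markers was 2204 and 2395 CPM in mIDH1, with 15 and 14 of them read, against 994 and 770 CPM in wtIDH1, with 14 and 13 read, and Camp was at 0 in 3 of the libraries. The part of either in the sterol genes was not tested. Synthesis in all other kept cells was 369 and 354 CPM in mIDH1, against 315 and 334 CPM in wtIDH1, so that the 402 and 608 CPM of monocyte-like cells in mIDH1 were above the other cells of their libraries, and the 226 and 295 CPM in wtIDH1 below them. The share of monocyte-like UMIs estimated to come from other cells was 25.6 and 5.89% in mIDH1, against 26.4 and 25.5% in wtIDH1. After subtraction of that estimate 1 member was higher and 1 lower, with 65 and 20 of all genes, while the direction of all 15 was kept.

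Promoters from RefSeq (GRCm38.p6) were available for 25 of the 30 genes, as windows of 300 bases, 250 before and 50 after the gene start. The windows of 3 genes higher and 1 lower in monocyte-like cells of mIDH1 are given. Idi1 and Cyp51 had the largest rises among called enzymes with a window, and Mylip the largest fall. Hmgcs1 was added because its window holds the sterol element named next, so this choice does not reflect how common the element is. Short motifs known from sterol genes were searched on both strands, the sterol element TCACCCCAC and CCAAT, the site of nuclear factor Y, and capitals mark a match to either on either strand. The windows are those of Idi1 at chr13:8885356-8885655 on the plus strand, Cyp51 at chr5:4104648-4104947 on the minus strand, Hmgcs1 at chr13:119690101-119690400 on the plus strand and Mylip at chr13:45389492-45389791 on the plus strand.
Idi1: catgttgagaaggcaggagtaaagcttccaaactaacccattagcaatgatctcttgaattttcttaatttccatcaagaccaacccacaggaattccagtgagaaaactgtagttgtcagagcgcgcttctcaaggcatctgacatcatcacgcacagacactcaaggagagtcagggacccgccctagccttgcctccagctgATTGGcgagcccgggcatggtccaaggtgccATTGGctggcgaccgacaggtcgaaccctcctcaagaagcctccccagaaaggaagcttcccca
Cyp51: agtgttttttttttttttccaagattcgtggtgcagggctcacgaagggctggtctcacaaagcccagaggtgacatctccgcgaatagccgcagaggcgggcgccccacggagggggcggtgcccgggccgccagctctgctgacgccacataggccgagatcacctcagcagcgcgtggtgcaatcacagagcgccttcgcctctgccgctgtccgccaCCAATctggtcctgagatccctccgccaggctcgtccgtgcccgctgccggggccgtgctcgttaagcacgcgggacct
Hmgcs1: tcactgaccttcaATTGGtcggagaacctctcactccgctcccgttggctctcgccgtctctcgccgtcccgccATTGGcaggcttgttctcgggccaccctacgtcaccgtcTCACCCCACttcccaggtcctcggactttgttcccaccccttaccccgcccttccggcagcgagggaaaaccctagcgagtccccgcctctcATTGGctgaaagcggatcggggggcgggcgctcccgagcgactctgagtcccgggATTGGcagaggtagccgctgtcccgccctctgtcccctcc
Mylip: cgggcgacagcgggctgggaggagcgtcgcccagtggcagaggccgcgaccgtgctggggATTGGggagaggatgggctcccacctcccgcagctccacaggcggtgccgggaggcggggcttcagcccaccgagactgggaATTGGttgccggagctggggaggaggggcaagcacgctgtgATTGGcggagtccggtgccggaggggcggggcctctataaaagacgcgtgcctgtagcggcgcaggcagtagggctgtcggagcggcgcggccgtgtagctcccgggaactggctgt
Hmgcs1 was the only member whose window held TCACCCCAC, 137 bases before the start, and 0.614% of the 27025 genes with a window hold it. CCAAT was present in 20 of the 25 members with a window, in 41.1% of all genes with a window, and in all 8 of the higher genes that had a window. It was present in 1 of the 2 lower genes with a window, Mylip, which has 3 matches beside the 4 of Hmgcs1, the 2 of Idi1 and the 1 of Cyp51. CACGTG was found in 6 members (8.09% of genes), and the repeat of AGGTCA spaced by 4 bases in 0 members (0.0148% of genes). These letters describe the windows and show no binding.

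In macrophage-like cells fewer members passed the test, with the enzymes Fdps and Sqle and the regulator Srebf2 higher and Mylip and Scap lower. Of the 7 mevalonate genes, both mIDH1 libraries lay above both wtIDH1 libraries in CPM for 2 and below them for 3. The share of all genes separated in this way was not counted, so these numbers are a description only. All 30 members were tested, 3 were higher in mIDH1 and 2 lower, and 7.71% of 10722 genes were higher and 2.72% lower. The median log2 fold change was 0.21 over the members and −0.02 over all genes. Under library totals 2 members were higher and 2 lower, and 562 and 1200 of all genes, instead of 827 and 292. Fdps had 16.9 and 31.2 CPM in mIDH1, against 9.17 and 7.73 CPM in wtIDH1, a log2 fold change of 1.71. Sqle had 7.24 and 15.6 CPM in mIDH1, against 2.08 and 2.62 CPM in wtIDH1, a change of 2.43. Srebf2 had 33.3 and 32.7 CPM in mIDH1, against 25.6 and 26.0 CPM in wtIDH1, a change of 0.60. For these 3 genes the libraries of the genotypes did not overlap. Fdps passed in 14 of 17 and Sqle in 14 of 15 other settings, but Srebf2 in only 4 of 17, and Srebf2 was lost under library totals, with DESeq2 and without any 1 of the 4 libraries.

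Mylip had 43.8 and 29.6 CPM in macrophage-like cells of mIDH1, against 87.9 and 85.4 CPM in wtIDH1, a log2 fold change of −0.96. Scap had 10.9 and 7.02 CPM in mIDH1, against 18.9 and 22.4 CPM in wtIDH1, a change of −0.89. Mylip passed in 14 of 18 other settings and Scap in 8 of 17, not with DESeq2. The exporters did not pass the test. Abca1 had 512 and 288 CPM in mIDH1, against 536 and 547 CPM in wtIDH1, with a change of −0.19, and Abcg1 had 174 and 101 CPM in mIDH1, against 186 and 169 CPM in wtIDH1. Nr1h3 had 56.5 and 46.0 CPM in mIDH1, against 72.1 and 55.2 CPM in wtIDH1, and Nr1h2 had 47.8 and 52.6 CPM in mIDH1, against 53.3 and 43.2 CPM in wtIDH1. The low values of Abca1 and Abcg1 were those of mIDH1 replicate 2, while replicate 1 was near the wtIDH1 libraries.

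The other synthesis genes of macrophage-like cells did not pass. Idi1 had 10.9 and 15.6 CPM in mIDH1, against 7.61 and 8.64 CPM in wtIDH1 (edgeR adjusted p = 0.075), and Stard4 had 9.49 and 12.5 CPM in mIDH1, against 6.57 and 6.48 CPM in wtIDH1 (edgeR adjusted p = 0.066). Cyp51 had 11.4 and 17.9 CPM in mIDH1, against 7.61 and 12.1 CPM in wtIDH1. Hmgcs1 had 24.6 and 22.2 CPM in mIDH1, against 28.4 and 31.4 CPM in wtIDH1, and its fitted change was −0.10. Insig1 had 16.6 and 21.1 CPM in mIDH1, against 13.5 and 15.6 CPM in wtIDH1, Srebf1 had 26.7 and 29.2 CPM in mIDH1, against 35.1 and 24.6 CPM in wtIDH1, and Soat1 had 252 and 232 CPM in mIDH1, against 278 and 309 CPM in wtIDH1. With all libraries 12 members and 2920 of 10722 genes had an unadjusted p under 0.05 in edgeR's test. Without mIDH1 replicate 2 the 5 called members kept their direction but not their calls, and calls among all genes also became fewer. The median log2 fold change over the members was then 0.18, instead of 0.21.

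Different clusters held most macrophage-like cells of the genotypes. Of mIDH1 cells 42.0% were in cluster 1 and 16.4% in cluster 3, and of wtIDH1 cells 5.26% were in cluster 1 and 52.7% in cluster 3. Within clusters 1, 3, 5 and 18, 0 of 20, 26, 5 and 2 members tested passed edgeR's test, with 1, 9, 1 and 1 at an unadjusted p under 0.05. Among all genes 96 of 7567, 251 of 9786, 52 of 2490 and 50 of 986 passed there. At an unadjusted p under 0.05 there were 1213, 2016, 465 and 214 of all genes. In cluster 3 Mylip had 50.3 and 34.6 CPM in mIDH1, against 96.3 and 91.4 CPM in wtIDH1 (edgeR adjusted p = 0.053), whereas in cluster 1 it had 40.6 and 22.2 CPM in mIDH1, against 36.5 and 40.0 CPM in wtIDH1. Hypoxia genes summed to 2370 and 2552 CPM in macrophage-like cells of mIDH1, against 1173 and 880 CPM in wtIDH1, and neutrophil markers to 1259 and 3162 CPM in mIDH1, against 760 and 787 CPM in wtIDH1, with 15 and 15 of the 15 markers read in mIDH1 and 13 and 14 in wtIDH1, where Ly6g was at 0 in both. Their part in the result was not tested.

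In the remaining classes at most 1 member passed the test between genotypes with all libraries. In dendritic-like cells 1 of 24 members tested was higher and 0 lower, with 1.83% and 0.347% of all genes. It was Fdps, with 58.1 and 155 CPM in mIDH1, against 36.7 and 24.5 CPM in wtIDH1, a log2 fold change of 2.02. Without mIDH1 replicate 1, 7 of 27 members were higher and 2 lower in dendritic-like cells, with 698 and 233 of 9105 genes. In microglia-like cells 1 of 17 was higher and 0 lower, with 1.89% and 0.342% of all genes. It was again Fdps, with 26.1 and 27.3 CPM in mIDH1, against 10.5 and 4.56 CPM in wtIDH1, a change of 2.11 that just passed (edgeR adjusted p = 0.049) and rested on 26 and 5 UMIs in mIDH1 and 6 and 5 UMIs in wtIDH1. It passed in 3 of 15 other settings. In neutrophil-like cells 0 of 17 passed edgeR's test, with 0.162% and 0.132% of all genes higher and lower. There 1 member had an unadjusted p under 0.05 (0 passed and 1 unadjusted with DESeq2). Among all genes 1142 of 6806 did so with edgeR, and 708 with DESeq2. In T cell-like cells 0 of 28 passed, with 4.62% and 1.26% of all genes. At an unadjusted p under 0.05 there were 2316 of 9645 genes with edgeR and 1334 with DESeq2. Among them were 2 members (0 passed and 2 unadjusted with DESeq2). With edgeR these were Idi1, with 20 and 15 CPM in mIDH1, against 33.7 and 41.7 CPM in wtIDH1 (change −0.82, edgeR adjusted p = 0.063), and Fdps, with 22.0 and 35.6 CPM in mIDH1, against 20.5 and 14.1 CPM in wtIDH1 (change 0.92).

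**Figure D5:**
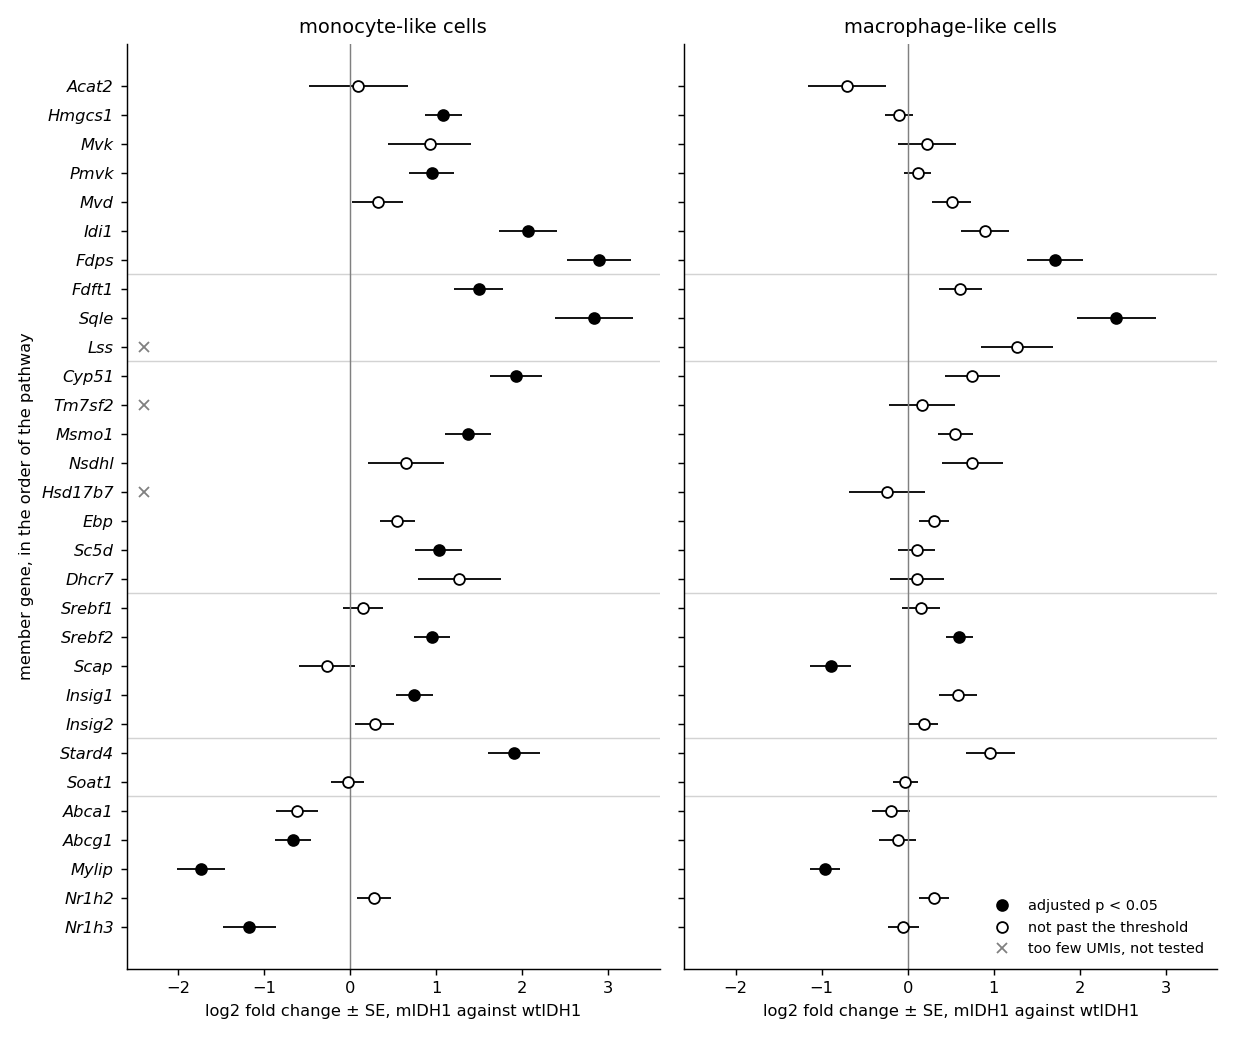
Log2 fold change (mIDH1 over wtIDH1) of the 30 genes in monocyte-like and macrophage-like cells, with standard errors; filled points passed the adjusted p of 0.05 and crosses at the left edge are genes too low to test. In monocyte-like cells every tested synthesis gene lies right of 0 (2.89 for Fdps), and Abca1, Abcg1, Mylip and Nr1h3 lie left of it (−1.74 for Mylip).

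Whether the genotype effect itself differed between classes was tested as an interaction. Between macrophage-like and monocyte-like cells 0.48% of 11657 genes differed, between macrophage-like and microglia-like cells 0.266%, and between macrophage-like and neutrophil-like cells 0.858%. None of the 30 members passed in any of the 3 with edgeR or DESeq2. At an unadjusted p under 0.05 there were 12, 1 and 3 members with edgeR and 6, 1 and 3 with DESeq2. Among all genes there were 864, 798 and 1503 of 11657 with edgeR, and 654, 613 and 1184 with DESeq2. Hmgcs1 came nearest, with a genotype effect lower in macrophage-like than in monocyte-like cells by a log2 difference of −1.21 (edgeR adjusted p = 0.057). The larger number of members called in monocyte-like cells is thus not shown to be particular to them.

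Other sterol and lipid genes were counted from a list of related genes. In monocyte-like cells 2 of 43 tested were higher in mIDH1, Cd36 (log2 fold change 1.74) and Scarb1 (0.71), both scavenger receptors that take up lipoprotein lipid, and 2 were lower, Mbtps2 (−1.19), the protease that completes SREBF cleavage, and Coq2 (−0.71), which uses isoprenoids for ubiquinone, where 10.3% and 5.79% of all genes were called. With DESeq2, after subtraction and without mIDH1 replicate 2 or wtIDH1 replicate 1, the 2 and 2 became 1 and 0. In macrophage-like cells 1 of 45 was higher, Olr1 (2.22), a receptor for oxidized lipoprotein, and 1 was lower, Abcg3 (−1.57), a transporter of the same family as Abcg1, beside 7.71% and 2.72% of all genes. In T cell-like cells Abca2 (1.04), a transporter of lysosomes, was the only 1 of 40 to pass, and it was higher, as were 4.62% of all genes. In microglia-like, dendritic-like and neutrophil-like cells 0 of 38, 40 and 30 passed edgeR's test, with 1, 6 and 1 at an unadjusted p under 0.05. Among all genes 872 of 7600, 1389 of 8356 and 1142 of 6806 had an unadjusted p under 0.05 there. Of the fatty acid genes on the SREBF1 side, 0 of 8 passed in monocyte-like cells and 0 of 8 in macrophage-like cells.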

How the data were processed

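The authors deposited 1 matrix per library with raw counts of UMIs per gene and barcode. Reads were aligned to mm10 with STAR in Cell Ranger 3.1, per the labels' protocols; the aggregation to equal depth named there is not visible in the deposited counts. The labels name the same run for all libraries. The members and lists were chosen with earlier results of these data known.

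Cells with under 200 genes or over 10% mitochondrial UMIs were left out, and since Scrublet's own threshold in scanpy 1.11.5 called under 0.5% of cells, the highest scores were removed at a rate of 0.8% per 1000 barcodes. In mIDH1 3625 and 3490 cells and in wtIDH1 3043 and 2965 cells were kept, with medians of 3350 and 2692.5 UMIs in mIDH1 and 4948 and 4864 in wtIDH1. Between 6 and 25 barcodes were shared by any 2 libraries. Cells were gated by their strongest marker list, with 27 Leiden clusters, made without sterol genes, as an alternative; 65.0% (monocyte-like) to 99.8% (T cell-like) of a gated class fell in clusters of the same name.

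UMI sums per class and library went into edgeR 4.0.16, run in R 4.3.3 (quasi-likelihood test, trimmed mean normalization, default filter, Benjamini-Hochberg threshold 0.05), after a test on simulated data; DESeq2 1.42.0 was an alternative. With 2 libraries against 2 no exact permutation test can go below 0.333, so the p-values rest on edgeR's model of the spread. Named genes are the members past the threshold, 14 fixed members in macrophage-like cells and across classes, and up to 4 other sterol genes of lowest p per comparison.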

Additional observations from a re-analysis of the deposited data

How the results depend on the processing

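Calls among all genes moved with the settings, as did those of members. In macrophage-like cells all genes gave 1119 calls, 873 with DESeq2, 1981 without the filter and 1056 in cells of 2000 or more UMIs. In monocyte-like cells 1508 became 85 after subtraction. Dendritic-like cells had 182 calls, 451 without the filter, 559 with the replicate block, 225 after subtraction and 65 in cells of 2000 or more UMIs. The counts that follow are members past the threshold in either direction. In macrophage-like cells the 5 became 3 with DESeq2, 8 without the filter on low counts, 3 in cells of 2000 or more UMIs and 0 within clusters 1, 3, 5 and 18, and ranged over 0 to 4 with 1 library left out. In monocyte-like cells the 15 became 2 after subtraction of RNA of other cells and 0 within clusters 1, 3 and 4, and ranged over 4 to 17 with 1 library left out. In microglia-like cells the 1 became 0 under library totals, DESeq2, the replicate block, Leiden clusters, a 5% mitochondrial limit, doublets kept, subtraction and cycling cells left out, and was 0 with any library left out. In dendritic-like cells the 1 became 4 without the filter and with the replicate block, 0 after subtraction and in cells of 2000 or more UMIs, and ranged over 1 to 9 with 1 library left out, 9 being without mIDH1 replicate 1. In neutrophil-like cells the 0 became 1 without the filter and with the replicate block, with 329 and 389 of all genes, instead of 20. Without mIDH1 replicate 1 more members and more of all genes were called. In T cell-like cells the 0 became 1 under library totals and with doublets kept, and 2 without the filter and with the replicate block. Among all genes 817, 744, 1239 and 978 were called in these 4 settings, instead of 568. There too more members and more of all genes were called without mIDH1 replicate 1. Between macrophage-like and monocyte-like cells the 14 became 9 without wtIDH1 replicate 2, and between macrophage-like and microglia-like cells the 5 became 3 without mIDH1 replicate 1 or wtIDH1 replicate 2. The interaction of macrophage-like and monocyte-like cells gave 1 without the filter and 1 without mIDH1 replicate 1. Among all genes the microglia-like calls were 170, and between 14 and 158 in the settings named above with all libraries. For the interaction of macrophage-like and monocyte-like cells 197 of all genes passed without the filter, instead of 56. The causes were not tested. Reversed values were Fdft1 within monocyte-like cluster 1 (−0.094) and Hmgcs1 within cluster 3 (−0.23).

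Same-numbered libraries showed little shared deviation over genes (correlations between −0.146 and 0.092), which cannot show whether they were paired in preparation. The replicate block gave 16 members in monocyte-like cells, beside 15, with 1881 of all genes, beside 1508. Crossed numbers gave 16 in monocyte-like, 1 in neutrophil-like and 2 in T cell-like cells, with 1683, 341 and 1075 of all genes.

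Few UMIs limit the low members: Lss had 20 UMIs in all monocyte-like cells. In the main genotype fits no member was tested below the filter on low counts. The filter of the class fit ran over all 24 sums, so members were also tested in classes where they had few UMIs. With 2 libraries a genotype, 1 library decides many calls, and the numbers of cells differ most in neutrophil-like cells, 903 and 1688 in mIDH1 against 85 and 145 in wtIDH1.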
